A study of Bos taurus with 9 samples.

Results

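Fatty acid oxidation breaks acyl chains down to acetyl-CoA, and 31 genes of this pathway were followed in bovine blastocysts whose oocytes had matured in 1 of 3 media. The genes were listed by name from their known roles in the carnitine shuttle, the mitochondrial and peroxisomal beta-oxidation spirals, electron transfer and transcriptional control. Of the 31, 30 were found by symbol among the 22127 genes of the table, and all 30 passed the filter on low counts that left 16469 genes for testing. ETFB, the beta subunit of the electron transfer flavoprotein, matched no symbol and was not analysed here as a member.

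The 9 libraries, 3 per medium, each held polyadenylated RNA from a pool of 9 to 11 whole blastocysts at day 8, read by RNA sequencing. Cumulus-oocyte complexes had been matured for 24 hours with 5.5 mM glucose (control), with 2.75 mM glucose (low glucose), or with 2.75 mM glucose and 1.8 mM BHB (low glucose with BHB). BHB is read here as the ketone body beta-hydroxybutyrate, since the labels do not expand the name. All 3 media also held serum, pyruvate, gentamicin, FSH and estradiol, and fertilisation and the later embryo culture were the same for every group, so the embryos themselves never met the maturation media. Strain, parentage and embryo sex are not in the labels, nor is it said whether the replicates were separate cultures. The p-values therefore measure only how far these samples spread, which may be technical.

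In a mitochondrion, long acyl chains enter as carnitine esters: CPT1 makes the ester at the outer membrane, SLC25A20 carries it across the inner membrane and CPT2 returns the chain to coenzyme A. Each turn of the spiral then removes an acetyl unit by dehydrogenation, hydration, a further dehydrogenation and thiolysis, and hands electrons to the respiratory chain through ETF and its oxidoreductase. Oocytes and early embryos of cattle carry large lipid stores, and beta-oxidation is known to be used during oocyte maturation and cleavage. Values are given in CPM, estimated counts scaled to a common library size with TMM factors, which is not divided by transcript length, so levels are compared between libraries and not between genes.

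Libraries held between 55611205 and 75178898 estimated counts. Markers of the blastocyst lineages were present: 13 of 13 trophectoderm, 11 of 11 epiblast and 9 of 10 hypoblast markers found by symbol had counts in all 9 libraries. Markers of cumulus and granulosa cells were also found, 22 of 23 with counts in every library; PTGS2 stands in both this list and the trophectoderm list. Their summed level overlapped between groups, at 1145 to 1511 CPM in control, 778 to 1494 CPM in low glucose and 884 to 1348 CPM with BHB, while 6 of 23 were lower at an adjusted p under 0.05 in each low glucose medium against control by edgeR's quasi-likelihood test, where 2.03% of all genes passed in low glucose and 1.38% with BHB. Of the 23, 4 had positive fold changes in low glucose and 5 with BHB. The median log2 fold change of the 23 was -0.86 in low glucose and -0.94 with BHB. All 3 libraries lay below all control libraries for 10 of 23 in low glucose and 9 of 23 with BHB, and above for 0. Over all genes, 13.1% and 13.3% separated in either direction. PTGS2 made up a large part of the summed level, at 355 to 544 CPM in control, 414 to 1011 CPM in low glucose and 464 to 928 CPM with BHB. All 13 trophectoderm markers had positive fold changes in either low glucose medium against control, none past the threshold. Of 11 epiblast markers, 10 were positive in low glucose and 9 with BHB, and of 10 hypoblast markers 6 in each. Of all 16469 tested genes, 8765 were positive in low glucose and 8488 with BHB. GATA4 was the only hypoblast marker called, lower in both media. Mitochondrially encoded transcripts took 4.75% to 5.36% of counts in control, 4.41% to 7.93% in low glucose and 2.25% to 6.19% with BHB.

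No fatty acid oxidation gene passed the test in any comparison, and most were held to a narrow range. In edgeR's quasi-likelihood test with adjustment over all 16469 genes, 0 of 30 members passed an adjusted p of 0.05 in low glucose against control, where 2.03% of all genes did. With BHB against control 0 of 30 passed, against 1.38% of all genes, and between the low glucose media 0 of 30 passed, against 0% of all genes. DESeq2 and limma-voom also called 0 of 30 in each of the 3 comparisons. At an unadjusted p under 0.05 there was 1 member in low glucose against control, HADHA, where 7.33% of all genes reached that level. There were 0 with BHB against control (7.32% of all genes) and 0 between the low glucose media (1.64% of all genes).

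The median log2 fold change of the 30 members was -0.06 in low glucose against control, beside 0.02 over all tested genes. It was -0.03 with BHB against control, beside 0.01, and 0.06 between the low glucose media, beside 0.01. In low glucose 18 members were below and 12 above control, and with BHB the same numbers, 18 and 12, were found. Both comparisons use the same control libraries. Between the low glucose media, 11 members were lower and 19 higher with BHB. In whole blastocysts, fewer cells of a type and less RNA per cell cannot be told apart, so a level here is an average over trophectoderm, epiblast and hypoblast.

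The intervals of the fold changes show how large a difference these libraries could have held. In low glucose against control, the 95% interval lay within 2-fold in either direction for 26 of 30 members, as it did for 60.9% of all genes, and within 1.5-fold for 20 of 30, as for 41.9% of all genes. With BHB against control the numbers were 26 within 2-fold (61.2% of all genes) and 18 within 1.5-fold (40.3%). Between the low glucose media they were 26 (64.1%) and 20 (44.2%). Members were counted more deeply than the average gene, with a median of 2185 estimated counts per library against 735 over all tested genes. The same 4 members had the wide intervals in every comparison: PPARA, CPT1B, ACADL and CROT, with 34.0, 60.0, 79.7 and 138 estimated counts per library on average, the lowest of the 30.

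**Figure D1:**
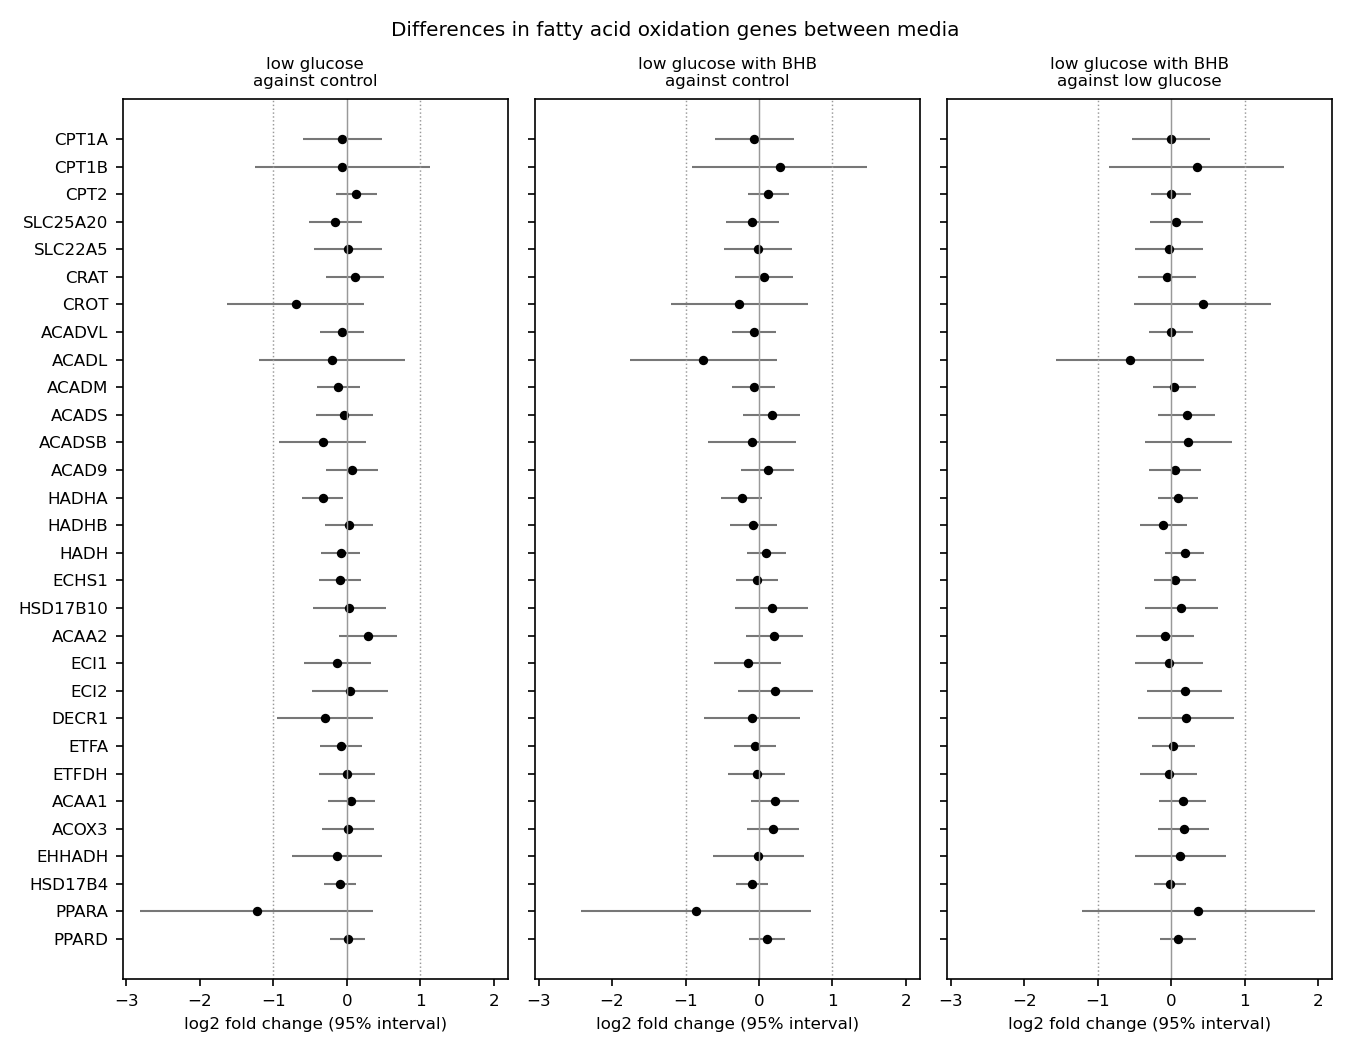
Fitted log2 fold change (points) with its 95% interval (lines) for the 30 members in 3 comparisons of media, 3 libraries each; dotted lines mark a 2-fold change. Most intervals lie between the dotted lines and include 0, and those of PPARA, CPT1B, ACADL and CROT are wide; only HADHA in low glucose against control has an interval that does not reach 0.

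Among genes of the carnitine shuttle, CPT1A encodes the widely expressed form of carnitine palmitoyltransferase 1, the regulated entry step. CPT1A stood at 69.6, 38.3 and 48.9 CPM in the control libraries, at 55.5, 40.2 and 54.8 CPM in low glucose and at 64.2, 34.3 and 51.8 CPM with BHB, in the order of replicates 1 to 3. The 3 ranges overlapped almost fully, with replicate 2 the lowest of each medium. Its log2 fold change was -0.06 (SE 0.247) in low glucose and -0.06 (SE 0.247) with BHB against control, and each turned positive, to 0.20, without control replicate 1. CPT1B, the muscle form of the enzyme, had few counts, at 0.558, 0.825 and 1.23 CPM in the control libraries, 1.18, 0.570 and 0.759 CPM in low glucose and 1.67, 0.856 and 0.661 CPM with BHB. Its groups overlapped, and its interval with BHB against control, -0.91 to 1.47 on the log2 scale, left room for a change of more than 2-fold upward.

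CPT2, which returns the acyl chain to coenzyme A inside the mitochondrion, varied little, at 30.7, 26.9 and 31.1 CPM in the control libraries, 30.95, 33.2 and 33.0 CPM in low glucose and 33.4, 34.3 and 29.3 CPM with BHB. Its highest library held 1.27 times its lowest. The log2 fold change against control was 0.13 (SE 0.126) in low glucose and 0.13 (SE 0.126) with BHB. SLC25A20, the carnitine-acylcarnitine carrier, averaged 28.3 ± 3.82, 25.4 ± 1.85 and 26.6 ± 5.10 CPM in control, low glucose and low glucose with BHB (SD, n = 3 each). SLC22A5, which takes carnitine up across the cell membrane, averaged 28.0 ± 8.29, 28.3 ± 3.89 and 27.8 ± 4.00 CPM in the same order.

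The remaining shuttle genes trim or export acyl groups. CRAT, which moves acetyl groups between coenzyme A and carnitine, averaged 32.4 ± 6.06, 35.1 ± 4.81 and 33.8 ± 6.71 CPM in control, low glucose and low glucose with BHB (SD, n = 3 each). CROT, the peroxisomal octanoyltransferase, was at 3.19, 1.17 and 3.46 CPM in the control libraries, 2.06, 1.49 and 1.27 CPM in low glucose and 1.92, 2.83 and 1.75 CPM with BHB. Control replicate 2 was the lowest of all 9 libraries for CROT, although the other control libraries were the highest. The log2 fold change of CROT in low glucose was -0.70 (SE 0.428, edgeR adjusted p = 0.941), and without control replicate 2 it was -1.05, with an unadjusted p of 0.0188 and an edgeR adjusted p of 0.414.

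**Figure D2:**
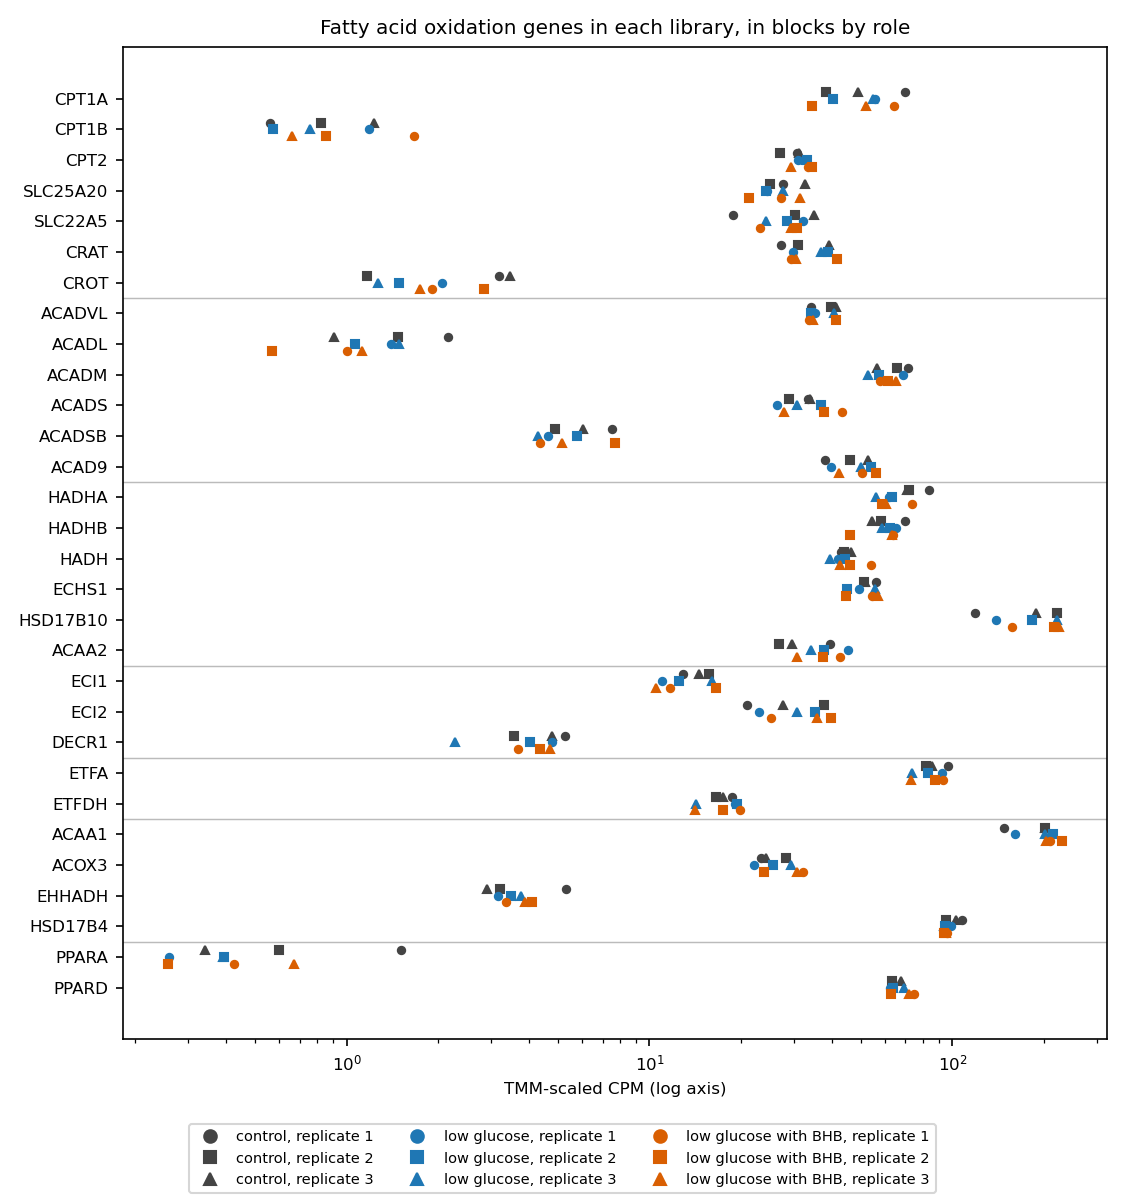
TMM-scaled CPM (log axis) of the 30 members in each of the 9 libraries, in blocks by role, with colours for the 3 media and symbols for replicates 1 to 3; values are not divided by transcript length. Within most genes the 3 colours mix, as for CPT2 between 26.9 and 34.3 CPM, while PPARA spreads from 0.256 to 1.51 CPM.

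The acyl-CoA dehydrogenases carry out the first step of the spiral, each for a range of chain lengths. ACADVL, for very long chains, was at 34.0, 39.6 and 41.2 CPM in the control libraries, 35.1, 34.1 and 40.5 CPM in low glucose and 33.7, 41.4 and 34.6 CPM with BHB. The groups overlapped, and its log2 fold changes against control were -0.07 (SE 0.137) in low glucose and -0.07 (SE 0.137) with BHB. ACADM, for medium chains, was at 71.3, 65.5 and 56.5 CPM in the control libraries, 68.7, 57.2 and 52.5 CPM in low glucose and 57.7, 61.3 and 65.0 CPM with BHB. No group stood apart for ACADM, with log2 fold changes of -0.12 (SE 0.134) and -0.07 (SE 0.134) against control.

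ACADL, for long chains, was thinly counted, with 296 estimated counts over the control libraries, 256 over low glucose and 165 with BHB. Its mean was 1.52 ± 0.632, 1.32 ± 0.223 and 0.898 ± 0.294 CPM in that order (SD, n = 3 each). With BHB against control its log2 fold change was -0.76 (SE 0.461, edgeR adjusted p = 0.870), and BHB replicate 2 held the lowest level, 0.567 CPM. ACADS, for short chains, averaged 32.1 ± 2.82 CPM in control, 31.3 ± 5.36 CPM in low glucose and 36.2 ± 7.76 CPM with BHB, and ACADSB, for short branched chains, 6.13 ± 1.32, 4.88 ± 0.777 and 5.73 ± 1.75 CPM. ACAD9, which also serves the assembly of respiratory complex I, averaged 45.5 ± 7.38, 47.8 ± 7.31 and 49.4 ± 6.90 CPM in the same order.

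HADHA and HADHB encode the alpha and beta subunits of the mitochondrial trifunctional protein, which carries the hydratase, dehydrogenase and thiolase steps for long chains. HADHA was at 83.9, 71.7 and 70.9 CPM in the control libraries and at 62.0, 63.0 and 55.8 CPM in the low glucose libraries, so that every low glucose library lay below every control library. With BHB it was at 73.8, 58.5 and 60.3 CPM, overlapping control through replicate 1. Its log2 fold change in low glucose was -0.33 (SE 0.127, 95% interval -0.60 to -0.05), 1.25-fold lower, with an unadjusted p of 0.0250 and an edgeR adjusted p of 0.462, so it did not pass. With BHB the log2 fold change was -0.23 (SE 0.127, edgeR adjusted p = 0.815). The unadjusted p in low glucose rose to 0.102 without control replicate 1 and to 0.0782 without low glucose replicate 3. It fell to 0.0144 with the replicate number as a block (edgeR adjusted p = 0.285). With BHB against control, the unadjusted p of HADHA was 0.0231 without BHB replicate 1 (edgeR adjusted p = 0.554).

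HADHB was at 69.8, 58.1 and 54.3 CPM in the control libraries, 65.0, 62.3 and 58.7 CPM in low glucose and 63.6, 45.9 and 63.3 CPM with BHB. The groups overlapped for HADHB, with log2 fold changes of 0.03 (SE 0.148) in low glucose and -0.08 (SE 0.148) with BHB against control. A RefSeq gene table of the assembly ARS-UCD2.0 places HADHA and HADHB next to each other on the same chromosome. The ratio of HADHA to HADHB in scaled CPM was 1.20, 1.24 and 1.31 in control and 0.953, 1.01 and 0.951 in low glucose, with no overlap. With BHB it was 1.16, 1.27 and 0.954, so that replicates 1 and 2 stood near control and replicate 3 at the low glucose level. In an exact two-sided permutation test of the log2 ratio, low glucose against control gave p = 0.1, the smallest that 3 libraries against 3 allow, and 0.9 after Benjamini-Hochberg adjustment over 9 such tests (3 gene pairs in 3 comparisons). The exact permutation p was 0.3 with BHB against control and 0.2 between the low glucose media, in tests that do not use the replicate numbers. Between the low glucose media the ratio was higher with BHB in each of the 3 same-numbered pairs, at 1.16 against 0.953, 1.27 against 1.01 and, by little, 0.954 against 0.951.

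**Figure D3:**
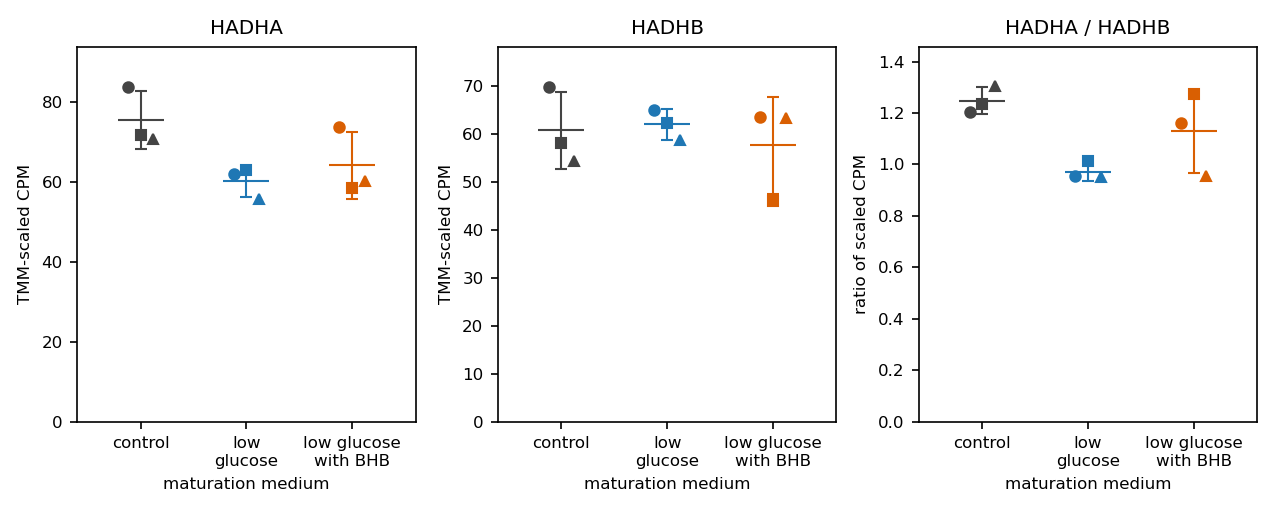
Scaled CPM of HADHA and of HADHB, and the ratio of both, in each library by maturation medium (circle, square and triangle for replicates 1, 2 and 3); horizontal bars are means and whiskers 1 SD of 3 libraries. HADHA and the ratio are lower in all 3 low glucose libraries than in all 3 control libraries, 0.951 to 1.01 against 1.20 to 1.31 for the ratio, while HADHB overlaps.

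Counting how often the 3 libraries of a medium all lay outside those of another gives the same picture for the whole pathway. In low glucose against control this held for 1 of 30 members, HADHA, and for 13.1% of all genes. With BHB against control it held for 1 of 30, ACAA1, which was higher, and for 13.3% of all genes. Between the low glucose media it held for 0 of 30 and for 5.52% of all genes.

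The other enzymes of the later steps act on shorter chains. HADH, the short-chain 3-hydroxyacyl-CoA dehydrogenase, averaged 44.3 ± 1.77, 41.8 ± 2.42 and 47.5 ± 5.84 CPM in control, low glucose and low glucose with BHB (SD, n = 3 each). ECHS1, the short-chain enoyl-CoA hydratase, averaged 53.0 ± 2.75, 49.9 ± 5.35 and 51.9 ± 6.45 CPM. HSD17B10, an X-linked dehydrogenase of branched and short chains that is also a subunit of mitochondrial RNase P, averaged 177 ± 52.9, 181 ± 41.0 and 200 ± 37.2 CPM. ACAA2, the mitochondrial thiolase for medium and long chains, averaged 32.0 ± 6.72, 39.1 ± 5.62 and 36.9 ± 5.99 CPM in the same order. ACAA2 had the highest fold change of the 30 in low glucose against control, a log2 value of 0.29 (SE 0.180, edgeR adjusted p = 0.941), and 0.47 without control replicate 1 with an unadjusted p of 0.0233 and an edgeR adjusted p of 0.549.

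Isomerases and a reductase bring unsaturated chains into the spiral. ECI1 and ECI2, which shift double bonds, averaged 14.4 ± 1.41 and 28.8 ± 8.51 CPM in the control libraries, 13.2 ± 2.62 and 29.6 ± 6.17 CPM in low glucose, and 12.9 ± 3.27 and 33.6 ± 7.53 CPM with BHB (SD, n = 3 each). DECR1, the 2,4-dienoyl-CoA reductase, averaged 4.53 ± 0.871, 3.69 ± 1.28 and 4.25 ± 0.516 CPM, and low glucose replicate 3 held its lowest level, 2.27 CPM. None of these 3 had non-overlapping groups in any comparison.

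Electrons leave the dehydrogenases through ETF. ETFA, the alpha subunit of ETF, was at 96.5, 81.7 and 85.6 CPM in the control libraries, 92.3, 83.0 and 73.7 CPM in low glucose and 93.3, 87.9 and 73.1 CPM with BHB. The groups overlapped, and the log2 fold changes against control were -0.08 (SE 0.132) in low glucose and -0.05 (SE 0.132) with BHB. ETFDH, the oxidoreductase that passes these electrons to ubiquinone, averaged 17.6 ± 1.03, 17.6 ± 2.96 and 17.2 ± 2.95 CPM in control, low glucose and low glucose with BHB (SD, n = 3 each). The row that the table names VSIG10L carries the Entrez number that RefSeq gives to ETFB. That row averaged 144 ± 18.1, 149 ± 12.8 and 155 ± 11.2 CPM in the same order, with log2 fold changes of 0.05 (SE 0.124) in low glucose and 0.10 (SE 0.124) with BHB against control, and which gene its reads came from was not tested.

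Peroxisomes shorten very long and branched chains with enzymes of their own. ACAA1, the peroxisomal thiolase, was at 148, 203 and 202 CPM in the control libraries, 160, 215 and 202 CPM in low glucose and 209, 231 and 204 CPM with BHB. All 3 BHB libraries lay above the control libraries, although the lowest of them and the highest control library differed by little. The log2 fold change of ACAA1 with BHB against control was 0.22 (SE 0.148, edgeR adjusted p = 0.902). HSD17B4, the D-bifunctional protein, varied least of the 30, with its highest library at 1.15 times its lowest, and averaged 102 ± 6.32, 96.0 ± 2.71 and 95.2 ± 1.41 CPM in control, low glucose and low glucose with BHB (SD, n = 3 each). ACOX3, an oxidase of branched chains, averaged 25.3 ± 2.65, 25.7 ± 3.51 and 28.9 ± 4.38 CPM. EHHADH, the L-bifunctional protein, averaged 3.81 ± 1.31, 3.47 ± 0.307 and 3.78 ± 0.373 CPM, and control replicate 1 held its highest level, 5.31 CPM.

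PPARA and PPARD encode nuclear receptors that bind fatty acids and activate genes of their oxidation, PPARA chiefly in liver and PPARD more broadly. PPARD was at 63.3, 63.1 and 67.5 CPM in the control libraries, 62.2, 63.6 and 69.5 CPM in low glucose and 74.5, 62.7 and 71.7 CPM with BHB. Its groups overlapped and its log2 fold changes against control were 0.01 (SE 0.112) in low glucose and 0.11 (SE 0.112) with BHB. PPARA had few reads, 90, 43 and 23 estimated counts in the control libraries, 17, 28 and 23 in those of low glucose and 26, 19 and 37 in those with BHB. In CPM it stood at 1.51, 0.599 and 0.342 for control, 0.260, 0.394 and 0.390 for low glucose and 0.427, 0.256 and 0.673 for low glucose with BHB.

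Control replicate 1 held the highest PPARA level and the groups overlapped in each comparison. The log2 fold change of PPARA was -1.23 (SE 0.728, edgeR adjusted p = 0.920) in low glucose and -0.86 (SE 0.721, edgeR adjusted p = 0.931) with BHB against control. Without control replicate 1 these values were -0.43 and -0.06. The 95% interval of PPARA spanned both a fall of more than 2-fold and no difference in either comparison with control.

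For several members the libraries differed by replicate number. Replicate 1 lay outside replicates 2 and 3 in the same direction in all 3 media for 8 of 30 members, and for 15.6% of all tested genes. Above the others in every medium were CPT1A, HADHB, ACAA2, ETFA and HSD17B4, and below them HSD17B10, ECI2 and CRAT. HSD17B10 was at 119, 139 and 157 CPM in replicate 1 of control, low glucose and low glucose with BHB, and between 183 and 226 CPM in the other 6 libraries. ECI2 was at 20.9, 23.0 and 25.2 CPM in replicate 1 and between 27.5 and 39.8 CPM in the others. ACAA2 was at 39.5, 45.2 and 42.7 CPM in replicate 1 and between 26.7 and 37.8 CPM in the others. For these 3 genes no library of replicate 1 overlapped any library of the other replicates, whatever the medium. The same held for CPT1A, HADHB, ETFA and CRAT, for HADHB by little, and not for HSD17B4. These genes were taken from the 8 picked above by replicate 1, so part of this separation was built in. The share of all tested genes that separated in this stricter way was not computed. What replicate numbers share is not stated in the labels. With the replicate number as a block, 0 of 30 members passed in each comparison. In that fit ACAA2 had an unadjusted p of 0.0401 in low glucose against control (edgeR adjusted p = 0.515).

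**Figure D4:**
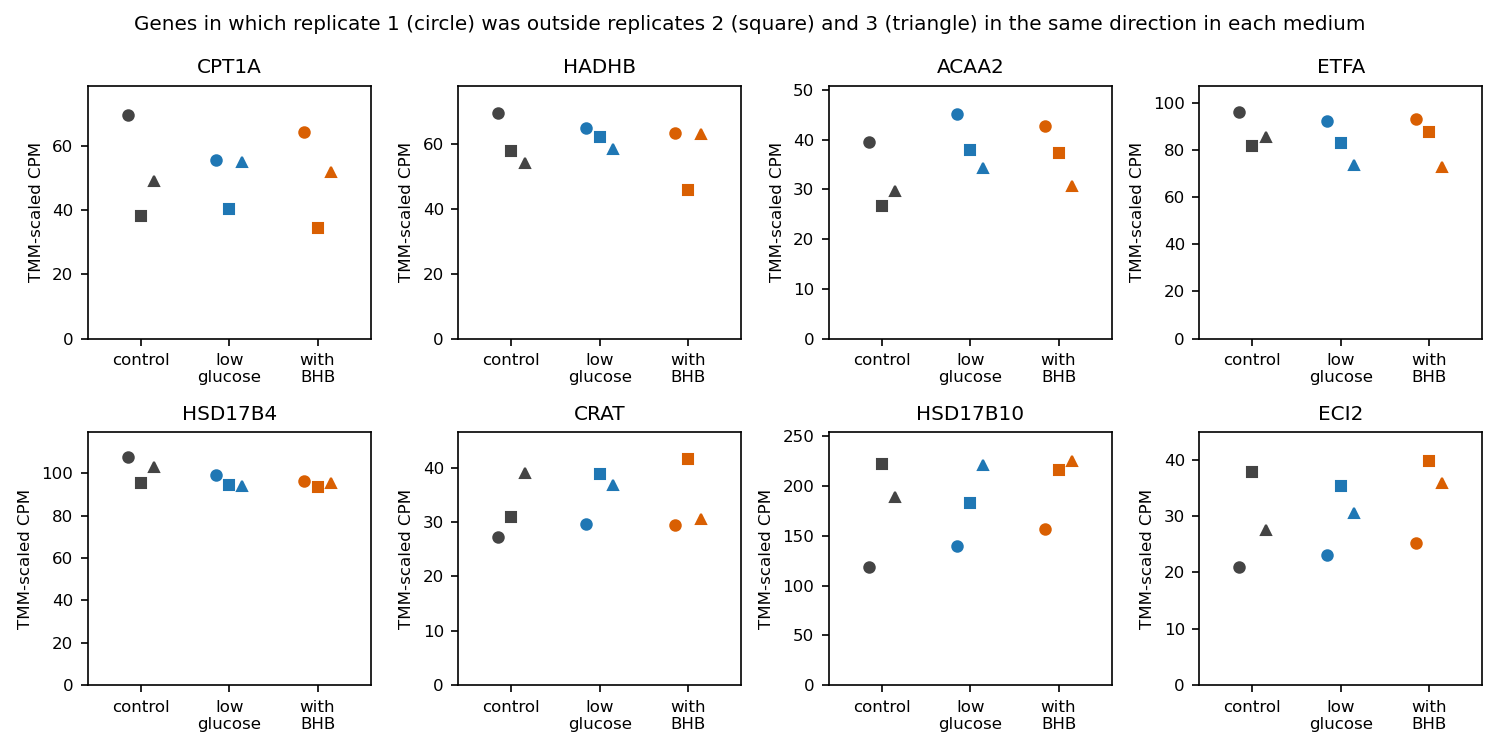
Scaled CPM of the 8 genes whose replicate 1 (circle) lay above (CPT1A, HADHB, ACAA2, ETFA, HSD17B4) or below (CRAT, HSD17B10, ECI2) replicates 2 (square) and 3 (triangle) in each of the 3 media. In HSD17B10 the circles lie between 119 and 157 CPM and all other symbols between 183 and 226 CPM.

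Single libraries also carried the extremes. Control replicate 1 had the highest level of 10 members and the lowest of 7. BHB replicate 2 had the highest level of 8 and the lowest of 7, while low glucose replicate 2 had neither for any member. Summed over the 30 genes, the level was 1279 to 1374 CPM in control, 1252 to 1359 CPM in low glucose and 1374 to 1400 CPM with BHB, and ACAA1 and HSD17B10 made up the largest parts of that sum.

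Around the 30 genes, 138 further genes of fatty acid handling were listed, of which 125 were tested. Of these, 2 were lower in low glucose against control, 1 was lower with BHB against control, and 0 differed between the low glucose media by edgeR's adjusted p, with 3, 8 and 0 at an unadjusted p under 0.05. Over all genes the shares were 2.03%, 1.38% and 0% by adjusted p and 7.33%, 7.32% and 1.64% by unadjusted p, and the counts among these 125 genes came to no more than those shares. The medians of these 125 genes were 0.01, -0.00325 and 0.02 on the log2 scale in these 3 comparisons. All 3 libraries lay below all control libraries for 8 of the 125 and above for 4 in low glucose, where 13.1% of all genes separated in either direction. With BHB the numbers were 12 below and 12 above, where 13.3% of all genes separated. PRKAG2, a gamma subunit of the energy sensor AMPK, which relieves the block of CPT1 by malonyl-CoA, fell in both low glucose media. It was at 10.7, 11.5 and 15.2 CPM in the control libraries, 6.68, 6.51 and 5.24 CPM in low glucose and 4.76, 6.56 and 6.64 CPM with BHB. Every control library lay above every library of the low glucose media, which overlapped each other. Against control its log2 fold change was -1.02 (SE 0.221, edgeR adjusted p = 0.0312) in low glucose and -1.06 (SE 0.221, edgeR adjusted p = 0.0356) with BHB.

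The PRKAG2 call was lost in several fits that left out a library. In low glucose it was lost without control replicate 2 or 3 or without any single low glucose replicate, with log2 fold changes from -0.84 to -1.08 and edgeR adjusted p-values from 0.0733 to 0.208. With BHB it was lost in every fit that left out a library except the one without low glucose replicate 3, with the 8 others from -0.88 to -1.16 and edgeR adjusted p-values from 0.0530 to 0.211, and also in the fit of only the 6 libraries compared, at -1.05 (edgeR adjusted p = 0.0598). In the same media 6 of the 23 cumulus and granulosa markers were lower. The median log2 fold change of that list was -0.86 in low glucose and -0.94 with BHB, with 4 and 5 of 23 positive. Its summed level overlapped between groups, but PTGS2, also a trophectoderm marker, made up a large part of that sum. The part of these markers in the PRKAG2 result was not tested.

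AMACR, the racemase that prepares branched chains for peroxisomal and mitochondrial oxidation, fell in low glucose. It was at 31.6, 29.2 and 24.1 CPM in the control libraries, 15.5, 13.1 and 11.6 CPM in low glucose and 19.2, 13.9 and 19.0 CPM with BHB, so that both low glucose groups lay below control. The log2 fold change was -1.08 (SE 0.182, edgeR adjusted p = 0.00765) in low glucose, a call kept without any single library, at -0.99 to -1.18. With BHB it was -0.70 (SE 0.181, edgeR adjusted p = 0.106), which did not pass, although DESeq2 called it (adjusted p = 0.0178). Between the low glucose media the log2 fold change of AMACR was 0.38 (SE 0.181, edgeR adjusted p = 1.00). AMACR was the only call among 29 tested genes of peroxisomal oxidation and biogenesis in low glucose, and none of them passed with BHB. The part of the 6 cumulus and granulosa markers, of 23, that were also lower in low glucose was not tested for AMACR.

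Of 14 tested genes of carnitine supply and malonyl-CoA control, PRKAG2 was the only call in either low glucose medium against control. BBOX1, the last enzyme of carnitine synthesis, chosen after its values were seen, was at 3.84, 2.58 and 1.87 CPM in the control libraries, 1.18, 1.78 and 1.78 CPM in low glucose and 1.70, 1.05 and 1.16 CPM with BHB. Its groups did not overlap with control in either low glucose medium, and its log2 fold changes were -0.81 (SE 0.382) and -1.08 (SE 0.385), with edgeR adjusted p-values of 0.711 and 0.396, so it did not pass.

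Among 24 tested genes of fatty acid uptake and activation, none passed. ACSS3, an acyl-CoA synthetase for short chains, was at 5.97, 5.27 and 6.87 CPM in the control libraries, 3.02, 3.11 and 1.37 CPM in low glucose and 0.935, 2.66 and 2.56 CPM with BHB. Every library of either low glucose medium was below every control library, and the log2 fold changes were -1.27 (SE 0.414) and -1.55 (SE 0.418), with edgeR adjusted p-values of 0.249 and 0.133. CD36, a fatty acid translocase, stood at -1.30 on that scale (SE 0.570, edgeR adjusted p = 0.639) with BHB against control. CD36 was at 15.4, 7.74 and 6.06 CPM in the control libraries and 5.04, 0.823 and 6.05 CPM with BHB. Control replicate 1 and BHB replicate 2 thus stood apart from the other libraries of their groups. The transporter genes SLC27A4, SLC27A1 and SLC27A6 stood at 0.29 (SE 0.164) in low glucose against control, and at 0.16 (SE 0.139) and 0.65 (SE 0.612) between the low glucose media.

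Of 22 tested partners and targets of the PPAR receptors, none passed. ANGPTL4, a lipase inhibitor induced by PPAR receptors, had 35, 25 and 76 estimated counts in the control libraries, 10, 7 and 13 in those of low glucose and 0, 3 and 5 in those with BHB, so that the 3 groups did not overlap in any comparison. A count of 0 allows up to 0.0492 CPM in BHB replicate 1, for counting error only. The log2 fold change of ANGPTL4 was -2.12 (SE 1.02, edgeR adjusted p = 0.731) in low glucose and -3.94 (SE 1.13, edgeR adjusted p = 0.180) with BHB against control. PPARG, the adipogenic receptor, stood at -1.19 (SE 0.561) in low glucose, and PPARGC1A, a coactivator of oxidative metabolism, at -1.70 (SE 0.810) with BHB against control. Both had few counts. PPARG had 126, 145 and 55 estimated counts in control and 76, 33 and 32 in low glucose, and these groups overlapped. PPARGC1A had 75, 37 and 22 in control, the most in replicate 1, and 8, 19 and 14 with BHB.

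Neither the 23 tested genes of branched and odd chains and thioesterases nor the 13 of FAD and ubiquinone supply had a call. ETFRF1, a regulator of ETF, and ACAD8, a dehydrogenase of valine breakdown, stood at -0.57 (SE 0.286) and 0.29 (SE 0.156) in low glucose against control. HIBADH and ECHDC3 stood at -0.28 (SE 0.163) and -0.51 (SE 0.338) with BHB against control, and ACAD8 and ECHDC1 at -0.25 (SE 0.156) and -0.19 (SE 0.131) between the low glucose media. ETFBKMT, which methylates the beta subunit of ETF, was at 0.269, 1.06 and 1.23 CPM in control and 2.61, 1.55 and 2.40 CPM with BHB. Its log2 difference was 1.35 (SE 0.521, edgeR adjusted p = 0.500) there and 0.72 (SE 0.513) between the low glucose media. The riboflavin transporter gene SLC52A3 stood at 0.75 (SE 0.481) in low glucose and 0.96 (SE 0.482) with BHB against control. SLC52A3 was at 2.86, 4.17 and 3.75 CPM in control and 6.61, 5.67 and 5.78 CPM in low glucose. With BHB it was at 2.43, 13.95 and 4.62 CPM, with replicate 2 far above the others and replicate 1 below every control library. COQ2 and COQ3, of ubiquinone synthesis, stood at 0.19 (SE 0.127) in low glucose against control and -0.18 (SE 0.180) between the low glucose media.

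**Figure D5:**
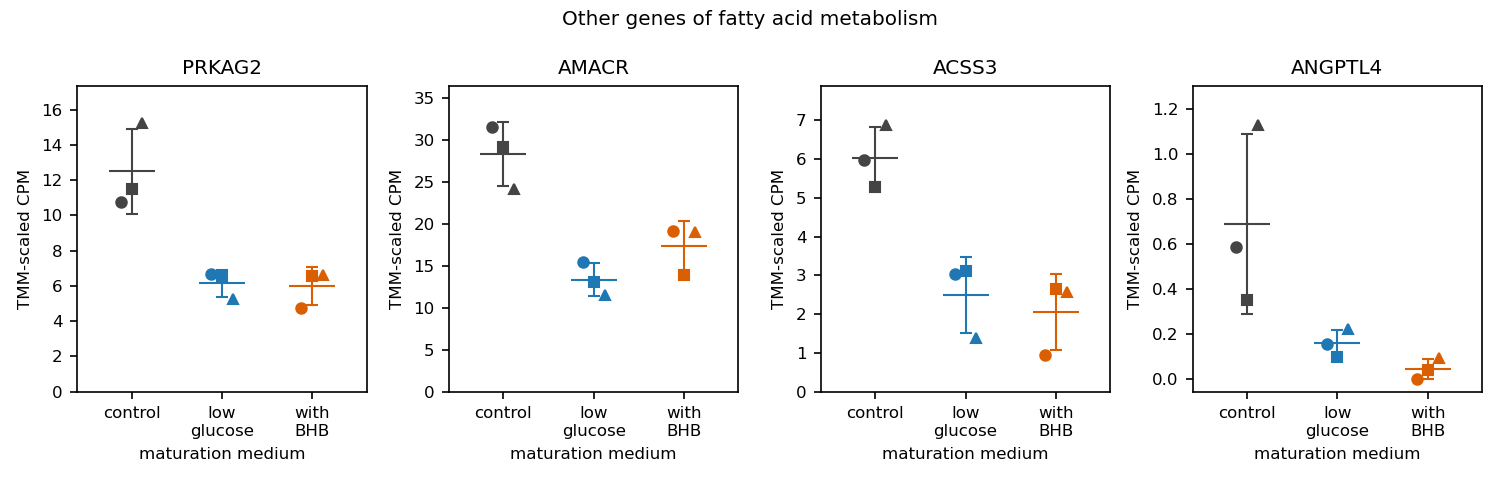
Scaled CPM of PRKAG2, AMACR, ACSS3 and ANGPTL4 in each library by maturation medium (circle, square and triangle for replicates 1, 2 and 3); horizontal bars are means and whiskers 1 SD of 3 libraries. All control libraries lie above all others in the 4 genes, with PRKAG2 at 10.7 to 15.2 CPM in control against 4.76 to 6.68 CPM in the low glucose media. ACSS3 and ANGPTL4 did not pass the test. Of the 125 further genes tested, the groups separated below control in 8 and above it in 4 in low glucose, and in 12 and 12 with BHB. In either direction these were 12 and 24 of the 125, where 13.1% and 13.3% of all tested genes separated.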

How the data were processed

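Per gene and library, the authors deposited estimated counts, many of them fractional. Fastp, kallisto and DESeq2 and the build bosTau9 are named per the submitters' processing notes; for their versions, roles and annotation the sources used here give nothing. Kallisto divides reads between similar transcripts by estimation, and 9 of the 30 members had fractional counts, so paralogs may share reads. Whether strand was used is also not given.

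Columns were matched to samples by the labels' descriptions. Counts were rounded and fitted in edgeR 4.0.16 (R 4.3.3): filterByExpr (minimum count 10, minimum total 15), TMM factors, and a quasi-likelihood model of the 3 group means over the 9 libraries together. Tests were two-sided, with Benjamini-Hochberg adjustment over 16469 genes and a threshold of 0.05. Standard errors came from the fold change and its F statistic. The steps were tested on simulated data. No 2 replicates agreed within sampling noise (smallest chi-square per degree of freedom 38.1).

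Alternatives were RLE factors, no filter, a stricter filter (mean count 50 or more), a replicate block, fits of only the 6 libraries in a comparison, limma-voom (limma 3.58.1), DESeq2 1.42.0 and leaving out each library. Deviations of same-numbered libraries correlated at 0.115, 0.243 and 0.102 between the low glucose media, so the numbers pair these samples by a rule of every pair over 0.1, from the data and not the labels. Against control the correlations ran from 0.0417 to 0.144. Figures used matplotlib 3.10.9.

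The members, lists and rule for named genes were chosen with earlier results of these data known. Values in every library are given for members at an unadjusted p under 0.05 and for 10 preset members, and also for CROT and ACAA1, chosen after their values were seen. From the other lists, genes past the threshold are named, or else the 2 of smallest p per comparison. As an exception, no fold change is given for the list of PPAR partners and targets between the low glucose media. Symbols of all 30 members matched RefSeq by Entrez number (assembly ARS-UCD2.0, of another build, so no coordinates are given). Protein, promoter and transcript sequences were not used here.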

Additional observations from a re-analysis of the deposited data

How the results depend on the processing

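The count of members past the threshold was 0 in all 3 comparisons under each alternative run: RLE factors, no filter, a mean count of at least 50 (which set PPARA aside and left 29), the replicate block, only the 6 libraries compared, DESeq2, limma-voom and leaving out each library. Over all genes, 334 passed in low glucose against control, 228 with BHB against control and 0 between the low glucose media (270 at an unadjusted p under 0.05 in edgeR), while DESeq2 called 557, 420 and 2. With each library left out in turn, the counts ran from 196 to 391, from 91 to 257 and stayed at 0. The fewest came without control replicate 3, and counts over 1.5 times smaller also came without low glucose replicate 2 (197) in low glucose, and without BHB replicate 3 (94), control replicate 1 (122) or BHB replicate 1 (133) with BHB. With the replicate block they were 405, 278 and 0, and the block changed no call of a member, of PRKAG2 or of AMACR. Member fold changes moved by more than 1 SE only where a library was left out, in 6 members for low glucose against control, 8 for BHB against control and 2 between the low glucose media. PPARA, CPT1B, ACADL and CROT, the members with the fewest counts, had intervals beyond 2-fold, and how much of their width comes from depth was not tested.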
